A study of Mus musculus with 2 samples.

Results

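Genes of the integrated stress response and the unfolded protein response were examined on 2 arrays of mouse cells that bear the label lymphoma, 1 array for each way of culture. The 10 genes were set by symbol, and every probe set annotated with exactly 1 of those symbols was taken. This gave 22 probe sets for 10 of the 18194 genes with such a probe set, of which 11560 were measured. No probe set with several symbols held a member. A probe set counted as measured above an intensity of 44.3 (the floor, the median of all values) on at least 1 array. The sample called serum here is labelled as lymphoma cells in a medium containing serum. The sample called co-culture is labelled as lymphoma cells grown together with endothelial cells, the lining cells of blood vessels. The names follow the labels, which the marker genes did not bear out. The lymphoma line, the source of the endothelial cells, the co-culture medium, the duration and any separation of the cell types before RNA extraction are stated in none of the labels.

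Each gene takes the probe set that is brightest over both arrays, and a difference is the log2 intensity in co-culture minus that in serum, with values under the floor raised to it. Higher or lower, as a call, means 2-fold or more, a log2 difference of 1 in size. Since each group has 1 array, no test, replicate error or p-value can be given. The error at hand is the pooled SD of log2 differences between measured probe sets of 1 gene, 0.60 over 5480 genes, and 0.46 over 3166 genes for probe sets with a mean intensity of 200 or more. It leaves out the spread between cultures. In RNA from a mixed population, fewer cells of a type and less RNA per cell cannot be told apart. The 3′ to 5′ intensity ratios of 3 control transcripts, a sign of RNA length, were 2.54 to 13.2 on the serum array and 1.88 to 5.03 in co-culture, each lower in co-culture. Their part in the differences was not tested. Of 11 B cell and leukocyte markers with a probe set, 0 were measured, and the highest had an intensity of 39.9, under the floor. Of 14 endothelial markers only Egfl7 was measured (473 in serum and 532 in co-culture), with Pecam1 and Cdh5 under the floor on both arrays. Their summed intensity was 696 and 823. Of 8 mesenchymal markers 5 were measured, none above 92.2, with sums of 356 and 412.

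The integrated stress response starts when kinases sense amino acid shortage, haem shortage, double-stranded RNA or misfolded protein and phosphorylate the initiation factor eIF2. General translation then slows, while the messenger RNA of the transcription factor ATF4 is translated more, so that ATF4 protein can change without its transcript. ATF4 induces genes of amino acid supply and a second factor, CHOP, encoded by Ddit3. The unfolded protein response of the endoplasmic reticulum (ER) shares the kinase PERK with that pathway and has further sensors. IRE1 splices the transcript of XBP1, and ATF6 is cut to release a transcription factor, and both induce ER chaperones and degradation factors. Secreting cells of the B lineage are known for heavy use of XBP1. Atf4, Ddit3, Chac1, Trib3, Asns, Sesn2 and Ppp1r15a are treated here as the ATF4-CHOP arm, and Xbp1, Hspa5 and Herpud1 as the XBP1/ATF6 arm. Herpud1 is also an ATF4 target, so its place in either arm is a convention.

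The promoters of 4 members are shown because each holds a motif of these factors, with Chac1 and Herpud1 past 2-fold on the arrays and Asns and Hspa5 within it. All 10 members had 1 promoter each in the RefSeq table of build GRCm38.p6, from 250 bases before the start site to 50 after it. Chac1 lies at chr2:119350992-119351291 on the + strand, Herpud1 at chr8:94386179-94386478 on the + strand, Asns at chr6:7693160-7693459 on the - strand and Hspa5 at chr2:34771840-34772139 on the + strand. Sequences run 5′ to 3′ along the gene, with motif matches in capitals.
Chac1: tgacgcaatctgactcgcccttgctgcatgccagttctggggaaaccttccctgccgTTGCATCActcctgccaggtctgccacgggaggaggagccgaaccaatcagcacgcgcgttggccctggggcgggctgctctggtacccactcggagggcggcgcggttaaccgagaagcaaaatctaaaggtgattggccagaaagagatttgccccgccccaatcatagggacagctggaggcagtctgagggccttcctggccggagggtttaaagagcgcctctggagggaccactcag
Herpud1: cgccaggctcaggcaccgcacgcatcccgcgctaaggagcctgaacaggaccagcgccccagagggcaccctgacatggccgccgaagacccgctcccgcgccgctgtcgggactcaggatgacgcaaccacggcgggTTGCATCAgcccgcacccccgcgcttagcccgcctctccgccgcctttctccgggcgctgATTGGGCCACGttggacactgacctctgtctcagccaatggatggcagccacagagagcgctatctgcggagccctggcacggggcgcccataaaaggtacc
Asns: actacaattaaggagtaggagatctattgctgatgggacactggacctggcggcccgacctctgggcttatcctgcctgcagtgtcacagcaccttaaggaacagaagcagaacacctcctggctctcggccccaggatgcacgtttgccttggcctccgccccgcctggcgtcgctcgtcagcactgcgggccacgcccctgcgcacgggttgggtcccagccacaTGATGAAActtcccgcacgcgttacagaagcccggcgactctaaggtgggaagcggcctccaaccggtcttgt
Hspa5: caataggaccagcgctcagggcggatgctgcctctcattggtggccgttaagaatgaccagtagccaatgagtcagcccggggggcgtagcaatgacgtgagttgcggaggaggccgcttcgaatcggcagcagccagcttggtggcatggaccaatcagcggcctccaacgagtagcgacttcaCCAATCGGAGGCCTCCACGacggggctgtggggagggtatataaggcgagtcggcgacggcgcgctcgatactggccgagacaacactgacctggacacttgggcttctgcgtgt
In Chac1, Asns and the upstream match of Herpud1 the capitals are the composite element of C/EBP and ATF factors, which ATF4 and CHOP dimers bind. In Hspa5 they are the ER stress element, and in the downstream match of Herpud1 the ER stress element II, both bound by ATF6 with the factor NF-Y.

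The composite element, searched as TGATGNAA on both strands, was found in 4 of 10 member promoters, those of Chac1, Trib3, Asns and Herpud1. It was found in 3.97% of the 32851 promoters in the table. The match of Chac1 began 193 bases before the start site, that of Herpud1 112 before, that of Asns 23 before and that of Trib3 14 after. The ER stress element, searched as CCAAT and CCACG with 9 bases between, was found in Hspa5 alone among the members, starting 65 bases before the start site, and in 0.119% of all promoters. The ER stress element II, searched as ATTGG and CCACG with 1 base between, was found in Herpud1 alone among the members, starting 52 bases before the start site, and in 0.0365% of all promoters. The XBP1 element TGACGTGG was found in 0 of 10 members and 0.676% of all promoters. The letters CCACG are shared by both ER stress elements and by the reverse strand of TGACGTGG, so these matches can overlap, though none did in the members. A match is a description of letters in this window and no evidence of binding.

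**Figure D1:**
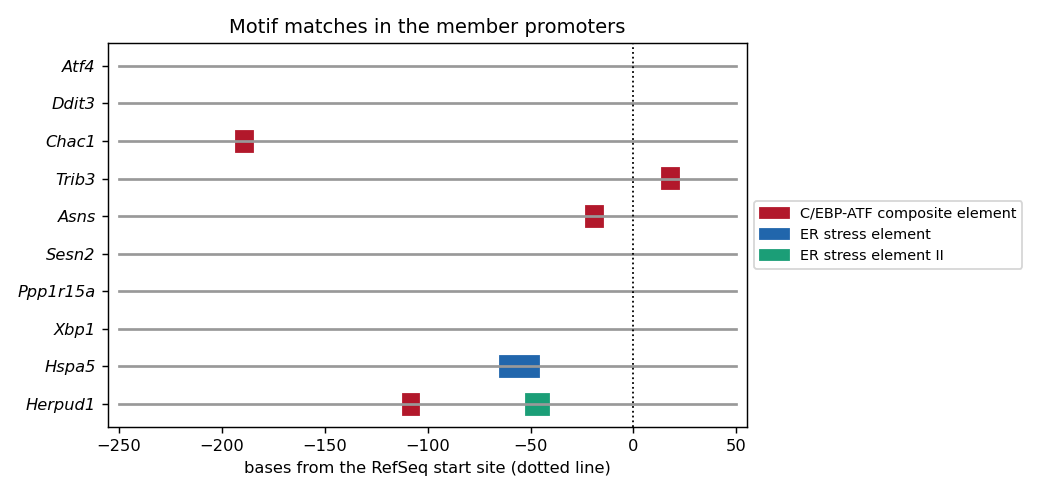
Motif matches along the 10 member promoters, drawn as blocks against the distance in bases from the RefSeq start site (dotted line), with both strands searched. Herpud1 holds both a composite element and an ER stress element II, while 5 members (Atf4, Ddit3, Sesn2, Ppp1r15a and Xbp1) hold no match in this window.

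By their brightest probe sets 3 of 10 were at least 2-fold lower (Ddit3, Chac1 and Herpud1) and 0 higher, where 9.97% of all measured genes were lower and 4.52% higher. Among the 7992 measured genes with a mean intensity of 200 or more, 8.7% were lower and 2.82% higher. After scaling to the hybridisation spikes, 14.0% of measured genes were lower and 2.92% higher, with the same number of members, 3 lower and 0 higher. The other 7 members lay within 2-fold. The log2 difference was below 0 for 9 of 10 members, against 54.1% of measured genes, and the median was -0.54 against -0.06. Counted over probe sets, 3 of 21 measured ones were at least 2-fold lower and 0 higher, where 8.05% of all measured probe sets were lower and 8.17% higher. Of those 21, 18 were below 0, against 47.4% of all measured probe sets. The number of members called lower fell to 1 of 10, with 0 higher, when each gene took the mean of its probe sets. Of all measured genes 7.95% were lower and 4.55% higher in that setting, so the members' share was near theirs. Every other alternative kept 3 members lower. With 10 genes, these shares rest on few values, and several genes are known to share the same regulators.

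**Figure D2:**
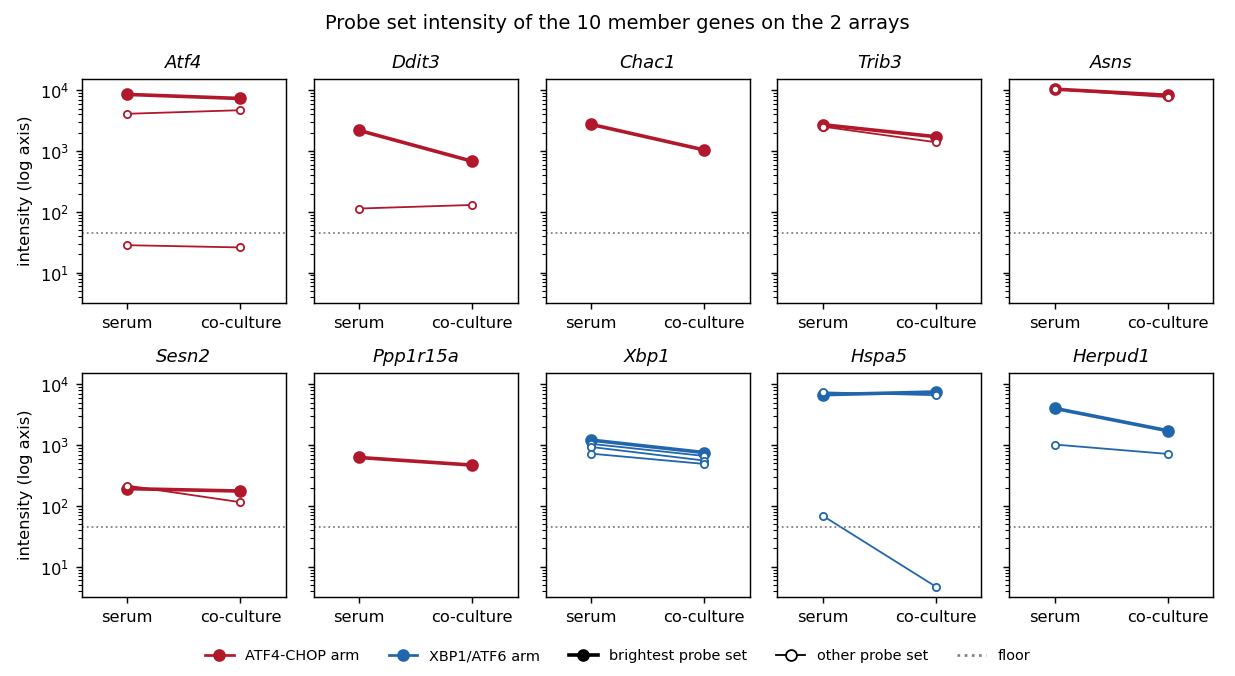
Intensity (log axis) of all 22 member probe sets on the serum and co-culture arrays, 1 panel per gene, with the brightest probe set filled and the floor dotted. The filled line goes from 2189 to 678 in Ddit3, from 2752 to 1042 in Chac1 and from 4020 to 1720 in Herpud1, and is near level in Atf4 and Hspa5.

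Within the ATF4-CHOP arm, the transcript of Atf4 itself differed little. Its brightest probe set had an intensity of 8537 in serum and 7319 in co-culture, a log2 difference of -0.22. A second one had 4099 and 4698, a difference of 0.20, and the third was under the floor on both arrays (28.3 and 26.0). The direction for Atf4 thus depended on the probe set, and both measured values were smaller than the spread of 0.60. Such a level speaks of the transcript and not of the protein, which is set mainly by translation.

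Ddit3, the gene of CHOP, a factor that favours cell death under prolonged stress, had the lowest difference of the 10. Probe set 1417516_at had 2189 in serum and 678 in co-culture, a log2 difference of -1.69 or 3.23-fold lower. This was 2.83 times the spread between probe sets, and 300th from the lowest of the 11560 measured genes. The other probe set, 1443897_at, had 113 in serum and 130 in co-culture, a difference of 0.20. The call for Ddit3 therefore rests on 1 of 2 probe sets, and the mean over both was -0.75, within 2-fold.

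Chac1, an enzyme that breaks down glutathione and a target of ATF4 and CHOP, had 2752 in serum and 1042 in co-culture. The log2 difference was -1.40, or 2.64-fold lower, 2.34 times the spread, and 4.55% of measured genes were as low or lower. It has 1 probe set, so no other reading on these arrays bears on it. Trib3, a pseudokinase that dampens AKT and ATF4 activity, had 2713 and 1719 by its brightest probe set and 2525 and 1395 by its other. The differences of -0.66 and -0.86 were in the same direction, larger than the spread, and within 2-fold.

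The further targets of this arm lay within 2-fold by every probe set. Asns, which makes asparagine from aspartate, had 10421 in serum and 8281 in co-culture by 1 probe set (-0.33) and 10436 and 7685 by the other (-0.44). Sesn2, a leucine sensor that restrains the growth kinase complex mTORC1, had 192 and 176 by its brightest probe set (-0.13) and 216 and 115 by the other (-0.91). The 2 probe sets of Sesn2 gave the same direction and unequal sizes. Ppp1r15a, the GADD34 subunit that directs dephosphorylation of eIF2 and so ends the response, had 626 and 469 by its 1 probe set, a log2 difference of -0.42. For Asns and Ppp1r15a these differences were smaller than the spread between probe sets. Over the 7 genes of the arm, by brightest probe sets, the median was -0.42, with 7 of 7 below 0, 2 at least 2-fold lower and 0 higher. Of all measured genes 54.1% were below 0, 9.97% at least 2-fold lower and 4.52% higher. Of the 12 measured probe sets of the arm 10 were below 0 and 2 above.

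The 3 genes of the XBP1/ATF6 arm did not share a level of difference. Xbp1, the factor that IRE1 activates by splicing its transcript, lay within 2-fold by all 4 probe sets, which gave 1210 and 754, 1049 and 663, 933 and 557, and 724 and 490 in serum and co-culture. Their log2 differences ran from -0.74 to -0.56, so the readings lay close together and all below 0. The annotation used here does not say which probe sets read the spliced form, so splicing was not analysed here. By its brightest probe set the log2 difference of Xbp1 was -0.68, slightly larger in size than the spread of 0.60.

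Hspa5, the gene of the ER chaperone BiP and the usual marker of ER stress, was at nearly the same level on both arrays. Its brightest probe set had 6755 in serum and 7464 in co-culture, a log2 difference of 0.14, which became -0.05 after scaling to the hybridisation spikes. A second one had 7372 and 6620, a difference of -0.16. The other, dim one had 68.7 and 4.67, at least 1.55-fold lower against the floor. Direction differed between the bright probe sets, and both values were within the spread. Herpud1, an ER membrane protein that recruits the machinery of ER-associated degradation, had 4020 in serum and 1720 in co-culture by probe set 1448185_at, a difference of -1.22 or 2.34-fold lower. Probe set 1435626_a_at had 1022 and 715, a difference of -0.51. Both readings of Herpud1 were below 0 and 1 of 2 passed 2-fold. Their mean was -0.87. The median of the 3 genes was -0.68 and became -0.27 over 2 genes when Herpud1 was counted with the ATF4-CHOP arm, whose median then was -0.54 over 8 genes.

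**Figure D3:**
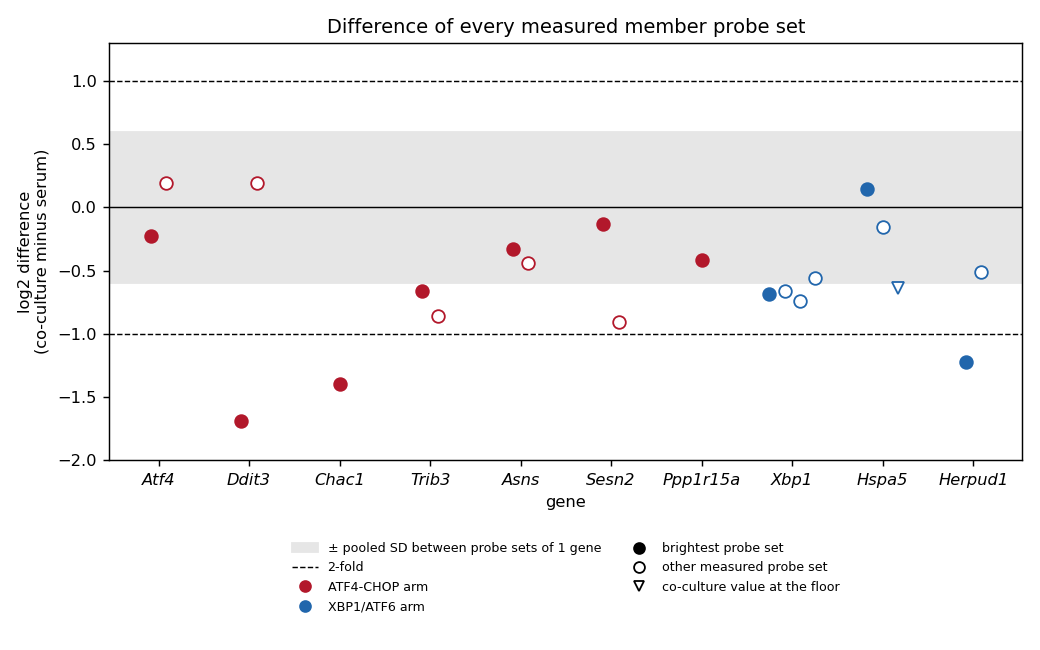
Log2 difference (co-culture minus serum) of the 21 measured member probe sets by gene, with the brightest filled, 2-fold dashed and the pooled SD between probe sets of 1 gene (0.60) shaded. Probe sets of Xbp1 lie between -0.74 and -0.56, while those of Ddit3 lie at -1.69 and 0.20.

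Relative to the whole distribution, the members spread from its low end to just above its middle. Ddit3, Chac1 and Herpud1 were in the lowest 2.60%, 4.55% and 6.33% of measured genes. Xbp1 and Trib3 followed at 17.9% and 18.9%, Ppp1r15a at 28.9%, Asns at 33.1%, Atf4 at 39.4% and Sesn2 at 45.4%. Hspa5, at 64.9%, was the 1 member above the middle. The widest gap between neighbours in this order, from Herpud1 at -1.22 to Xbp1 at -0.68, lay between the spread of brighter probe sets (0.46) and that of all (0.60), and the other gaps were below both.

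**Figure D4:**
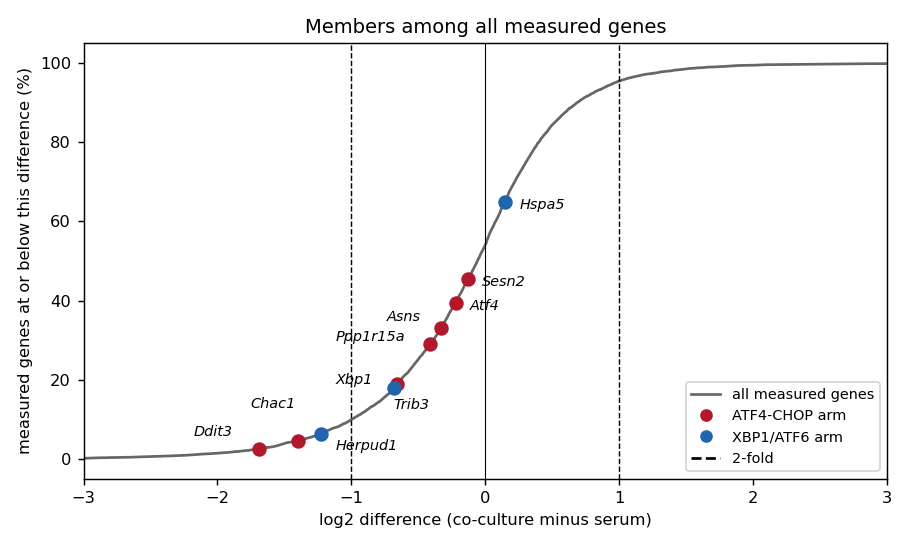
Cumulative share of the 11560 measured genes (vertical axis, %) at or below each log2 difference (horizontal axis), with the 10 members as points and 2-fold dashed. Ddit3, Chac1 and Herpud1 lie left of the 2-fold line and Hspa5 alone lies right of 0.

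By their brightest probe sets, the sensors and the eIF2 machinery upstream of both arms lay within 2-fold. Of 17 measured genes in that list 0 passed 2-fold either way, where 9.97% of all measured genes were lower and 4.52% higher. The median was -0.21 and 13 of 17 (76.5%) were below 0, against 54.1% of measured genes. With the mean over probe sets the median was -0.03, and after scaling to the hybridisation spikes -0.40. PERK, encoded by Eif2ak3, had 286 in serum and 268 in co-culture, and the amino acid sensor GCN2, encoded by Eif2ak4, had 406 and 335. IRE1, encoded by Ern1, had 323 and 279, with log2 differences of -0.21 and, by another probe set, -0.89. Atf6 had 1527 and 990 (-0.63), and its other probe sets gave -0.71 and -0.24. The double-stranded RNA kinase Eif2ak2 had -0.79 but 0.06 and 0.21 by other probe sets. Mbtps1, the site-1 protease that cuts ATF6, had -0.98 but 0.54 and 1.46 by others, so neither direction was shared by all readings.

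Of the further targets of ATF4 and CHOP, 8 of 46 measured genes of both lists were at least 2-fold lower and 0 higher. That is 17.4% lower, where 9.97% of all measured genes were lower and 4.52% higher. Both lists were chosen with earlier results of these data known, so this share is not independent of those results. By their brightest probe sets the other 38 genes lay within 2-fold, though some of their other probe sets passed it. Of the 46, 37 (80.4%) were below 0, against 54.1% of all measured genes and 57.4% of those with a mean intensity of 200 or more, and the median was -0.34. In the list of transcription factors, growth control and death genes, 5 of 19 (26.3%) were lower. Without probe sets marked as shared sequence it was 3 of 17, against 9.79% of all measured genes. The list's median of -0.28 was then -0.12. Vldlr, a lipoprotein receptor, had 2048 in serum and 452 in co-culture, 4.53-fold lower, and its 5 other measured probe sets gave -1.68 to -0.39. Nupr1, a stress-induced chromatin protein, was 2.63-fold lower (5086 to 1937; -1.56 by its other probe set). Gadd45a, a DNA damage gene, was 2.59-fold lower (1533 to 592), and Tnfrsf10b, a death receptor, was lower by at least 2.63-fold (117 to 36.7). The fifth was Atf5, a stress transcription factor related to ATF4, 2.32-fold lower (3442 to 1481), a gene singled out after its values were seen. Atf3, a repressor induced by ATF4, had 812 and 522, a log2 difference of -0.64.

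In amino acid supply, 3 of 27 measured genes passed the 2-fold limit on the lower side and 0 on the higher, with 22 below 0 and a median of -0.37. The 11.1% lower is close to the 9.97% of all measured genes. Pck2, the mitochondrial form of a gluconeogenic enzyme, had 7037 in serum and 2632 in co-culture, 2.67-fold lower, and -1.60 by its other probe set. Aars, the alanyl-tRNA synthetase, had 5006 and 2261, 2.21-fold lower, and -1.23 by its other probe set. Cth, which makes cysteine, had 1537 and 697, 2.20-fold lower. By their brightest probe sets the other 24 genes of this list lay within 2-fold. Other probe sets passed it both ways. Slc7a11 had 0.45, but 2.68 by its other probe set, and Gpt2 had -0.49, with -2.02 to -0.33 by others.

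By their brightest probe sets, genes that act inside the ER were mostly within 2-fold. Some of their other probe sets passed it on the higher side but not on the lower. Over the 3 lists of chaperones, ER-associated degradation and ER entry and export, 3 of 62 measured genes were lower (4.84%) and 1 higher (1.61%), against 9.97% and 4.52% of all measured genes. The median was 0.10, and 24 of 62 (38.7%) were below 0, against 54.1% of all. Measured against the median of all genes, that of the ER lists was 0.16 above and that of the ATF4 target lists 0.28 below. The ER median itself became -0.09, with 38 of 62 below 0, after scaling to the hybridisation spikes, which moved the median of all genes from -0.06 to -0.26. Relative to all genes it was 0.06 to 0.22 above in the 9 alternative settings, while that of the ATF4 target lists was 0.21 to 0.38 below. In the same settings 2 to 4 of the 53 to 62 measured ER genes were lower and 0 to 4 higher. Of all measured genes 5.50% to 14.0% were lower there and 1.98% to 12.6% higher. All these lists were chosen with earlier results of these data known. The difference between the sides was not tested, since there is 1 array per group.

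Among 24 chaperones and folding enzymes, 1 was higher and 1 lower (4.17% each), against 4.52% and 9.97% of all measured genes, so the share higher is near that of all genes. The median was 0.10, or -0.10 after scaling to spikes. Pdia4, a disulfide isomerase of the ER, had 54.9 in serum and 276 in co-culture, 5.02-fold higher by its 1 measured probe set and from a value near the floor. Sil1, the exchange factor of BiP, was 2.16-fold lower (1250 to 578). Hsp90b1, the ER form of HSP90 and a partner of BiP, had 6333 and 6793, a log2 difference of 0.10, with -0.19 by its other probe set. Hyou1, an ER chaperone singled out after its values were seen, had 0.72, and 1.07 and 2.15 by its other probe sets.

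In ER-associated degradation, 1 of 16 measured genes was lower (6.25%, against 9.97% of all) and 0 higher. The median was 0.02, but -0.01 at the floor of percentile 75 and -0.17 after scaling to spikes. The lower gene was Erlec1, a lectin that reads glycans of misfolded proteins, 2.96-fold lower (805 to 272), though its other probe sets gave -0.52 and 0.27. In ER entry and export, 1 of 22 was lower (4.55%) and 0 higher, and the median was 0.19, or -0.0023 after scaling to spikes. The lower gene was Kdelr3, a receptor that returns escaped chaperones to the ER, 4.39-fold lower (791 to 180). Of the 6 other ER stress factors 3 were measured, all within 2-fold. Creb3, an ER membrane factor, had -0.45 (-0.42 to 0.57 by other probe sets), and Creb3l2, its relative, had 81.8 and 44.0, at least 1.85-fold lower.

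**Figure D5:**
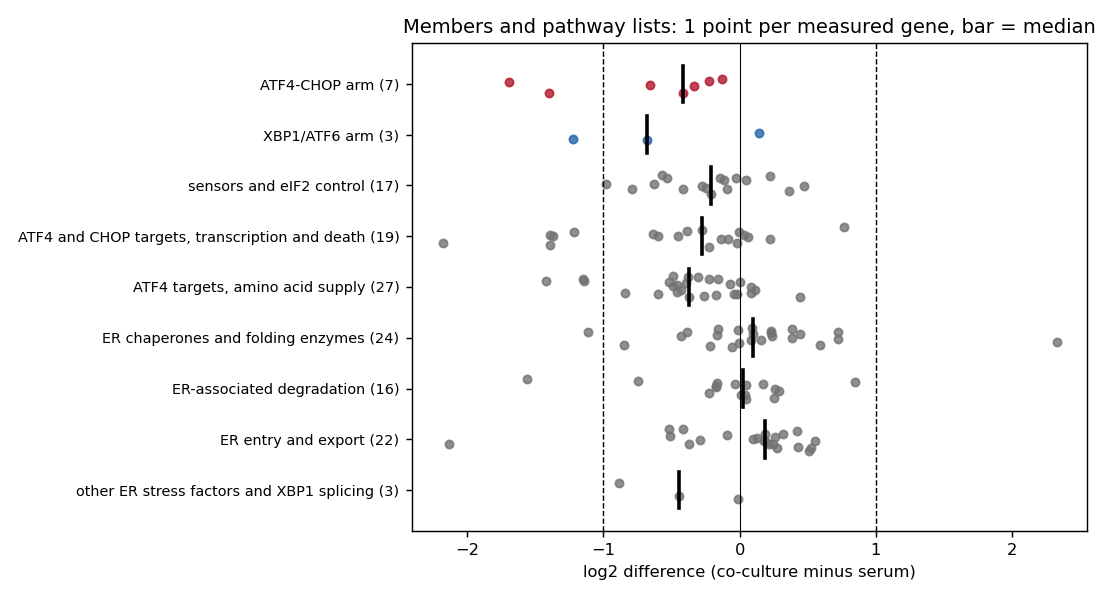
Log2 difference (co-culture minus serum) of every measured gene in the 2 arms and 7 pathway lists, with the list's number of genes in brackets and its median as a bar. Medians of the ATF4 target lists lie at -0.28 and -0.37, and those of the 3 lists of the ER itself at 0.10, 0.02 and 0.19, all 3 of which turn below 0 after scaling to spikes.

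Among measured genes with a RefSeq promoter, those with and without a composite element in this window had nearly the same differences. Of 256 measured genes with a composite element, 10.5% were at least 2-fold lower and 5.08% higher, and of 9139 without it 9.82% and 4.30%. The medians were -0.06 and -0.07. Genes with the ER stress element (14 measured) and the ER stress element II (8 measured) were too few to describe beyond their medians of 0.05 and -0.06. Of the 4 members that carried the composite element, Chac1 and Herpud1 were past 2-fold and Trib3 and Asns were not, while Ddit3 was past 2-fold with no match in this window.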

How the data were processed

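Total RNA was extracted with a column kit, copied to cDNA, transcribed into biotin-labelled cRNA and hybridised, per the labels' protocols. The authors deposited 1 linear intensity for each of 45101 probe sets on each of 2 arrays. The software, background correction and normalization behind them are not given in the sources used. Both arrays had a mean of 500.003 once 2% of values were trimmed from either end. The number of arrays limits the precision.

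Names came from the platform annotation, with symbols updated by gene number to RefSeq of GRCm38.p6 (34754 of 34958 with 1 symbol matched). The 932 with several symbols named no gene. Listed symbols without a probe set were looked up among RefSeq synonyms. Intensities were raised to the floor and put on the log2 scale, as in the text, with Python 3.11.15, numpy 2.4.6 and pandas 2.3.3. Steps were tested on simulated data with shifts larger than 2-fold and noise smaller than the spread found here. That test gives no error rate for the calls.

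Members and lists were chosen with earlier results of these data known. Named genes are the members, up to 4 per list past 2-fold with the largest difference (or the 2 largest where none was), and Eif2ak3, Eif2ak4, Ern1, Atf6, Atf3 and Hsp90b1. Atf5, Hyou1, Slc7a11, Gpt2 and Eif2b5 fall outside this rule and were named after their values were seen. No gene was named for a like pattern, since 2 arrays give 1 difference per gene. Alternatives were floors at percentiles 25 and 75 and at 200, a pseudocount of 16, centring on the median difference, quantile normalization, scaling to 18 hybridisation spike probe sets, a gene mean of its probe sets, dropping probe sets marked as shared sequence, and moving Herpud1 between arms.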

Additional observations from a re-analysis of the deposited data

How the results depend on the processing

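Across the alternatives the medians of both arms stayed below 0, and Chac1 was at least 2-fold lower in 9 of 9. The floors, the gene mean and the dropping of marked probe sets could not move Chac1, which has 1 bright, unmarked probe set. Ddit3 and Herpud1 were at least 2-fold lower in 8 of 9 each, of which the floors and the dropping of marked probe sets could not move them either. With the mean over probe sets, Ddit3 had -0.75 and Herpud1 -0.87. The ATF4-CHOP arm then had 1 gene lower and the XBP1/ATF6 arm 0, so 1 of 10 members was lower. Of all measured genes 7.95% were lower and 4.55% higher in that setting, so the members' share lower was near that of all genes. In the same setting, amino acid supply had 1 of 27 genes higher, ER chaperones 2 of 24 higher and ER-associated degradation 0 of 16 lower. With Herpud1 in the other arm, the XBP1/ATF6 arm had 0 lower. Without probe sets marked as shared sequence, ATF4 and CHOP targets had 3 of 17 lower and 1 higher. ER chaperones then had 3 of 20 higher and ER-associated degradation 1 of 15. Of all measured genes 9.79% were lower and 5.37% higher in that setting. Hspa5 and Trib3 gave no value there, since all their probe sets carry that mark. The mark is a name ending in _s_at, _x_at or _a_at, dropped alike whatever kind of sharing each stands for. At the floor of percentile 25, ATF4 and CHOP targets had 1 of 19 higher, against 12.6% of all measured genes. At the floors of 200 and percentile 75 ER chaperones had 0 higher, against 2.58% and 1.98% of all measured genes. Sesn2 gave no value at the floor of percentile 75. Quantile normalization gave 1 of 3 lower among the other ER stress factors, against 10.4% of all measured genes. Scaling to spikes gave 1 of 17 lower among sensors and 2 of 24 among ER chaperones, against 14.0% of all measured genes. The cause of these changes was not tested, beyond the fewer or averaged probe sets that some settings use. Over all genes, 31.2% of calls were higher, against 55.9% at the floor of percentile 25, where 1599 were lower and 2029 higher, 17.2% after scaling to spikes, where 1576 were lower and 328 higher, and 41.5% with the pseudocount (1203 and 853). At the floor of percentile 75, 397 were lower and 143 higher, and at 200, 656 and 218. No paired analysis was possible because each group has 1 array.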
